A study of Mus musculus with 6 samples.

Results

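Mitochondrial ribosomal protein genes were examined in hearts of VAChT KD and WT mice. Members were the probe sets listed with 1 gene symbol that begins with Mrpl (large subunit) or Mrps (small subunit) followed by a digit, and these were 85 of the 35556 probe sets on the array, for 77 of the 19938 genes so named. The large subunit held 53 probe sets of 48 genes and the small subunit 32 probe sets of 29 genes. VAChT KD mice carry a body-wide homozygous reduction of the vesicular acetylcholine transporter, the protein that loads acetylcholine into synaptic vesicles, and the comparison asks how heart transcripts differ under long-term low cholinergic tone. Both groups were untreated males of 3 months, recorded as C57BL/6, while the study's methods describe a mixed strain that had been backcrossed for 3 generations. Heart RNA was hybridized to 3 Mouse Gene 1.0 ST arrays labelled VAChT KD and 3 labelled WT, each array a pool of 2 RNA samples. The records name the whole heart and the methods the ventricle.

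The mitochondrial ribosome translates the few messages that the mitochondrial genome encodes, all of them core subunits of the respiratory chain and of ATP synthase. Its RNAs come from the mitochondrial genome, whereas every one of its proteins is encoded in the nucleus, made in the cytosol and imported. Some of these proteins descend from bacterial ribosomal proteins and others were added in the course of mitochondrial evolution. The heart is rich in mitochondria and depends on oxidative phosphorylation.

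Of the 6 arrays, 3 stood apart for Ogdhl or for the cardiomyocyte markers. Ogdhl, of the oxoglutarate dehydrogenase family, read 7.06, 10.17 and 7.09 (log2) on VAChT KD 1, 2 and 3, against 9.60, 7.21 and 10.33 on WT 1, 2 and 3, so that each array numbered 2 read like the other group. Slc18a3, which encodes VAChT, read 7.24, 6.77 and 7.58 on the VAChT KD arrays and 7.31, 7.42 and 7.11 on the WT arrays, so the groups overlapped (log2 difference -0.08, standard error 0.20, limma adjusted p = 0.873). Arrays are therefore named here by their labels. The study's table of changed genes lists Ogdhl as lower in VAChT KD hearts. With the labels as given, the Ogdhl groups overlapped, at a log2 difference of -0.94 (standard error 1.03). With the labels of VAChT KD 2 and WT 2 exchanged, all VAChT KD values of Ogdhl would lie below all WT values. The listing of Ogdhl thus goes with exchanged labels, as does that of Mrpl20, Mrpl22 and Mrpl47 described below. Which labels match the mice was not tested. Every difference below takes the labels of these 2 arrays as given. An exchange would alter the size of each difference and could alter its sign. Results are also given with both arrays left out. The 6 ventricular cardiomyocyte markers averaged 13.20, 13.95 and 13.94 on the VAChT KD arrays and 13.89, 13.89 and 13.87 on the WT arrays, so VAChT KD 1 was lower at the bright end of the scale, above the level of any mitochondrial ribosomal protein gene. In RNA of whole tissue, fewer cells of a type and less RNA per cell cannot be told apart. The marker values are as deposited, and the part of array scaling in them was not tested.

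Signals are log2 values from RMA, a procedure that corrects the background, equalizes the arrays and summarizes the probes of each set. The deposited medians over all probe sets still differed. They were 6.88, 6.89 and 6.84 on VAChT KD 1, 2 and 3, against 6.98, 6.93 and 6.91 on WT 1, 2 and 3. Averaged over the 6 arrays, large subunit probe sets spanned 7.48 to 11.59 and small subunit probe sets 7.44 to 11.59. All 85 lay above 6.51, the 95th percentile of the olfactory receptor probe sets, which served as a measure of background in heart. The brightest was Mrps21, a small subunit protein with a bacterial counterpart. Next to it stood both probe sets of Mrpl23, a large subunit protein near the exit of the peptide tunnel, and Mrps23, a small subunit protein, was also among the brightest. The dimmest were 1 of the 2 probe sets of Mrpl47 and that of Mrpl22 in the large subunit, and Mrps17 and Mrps12 in the small subunit.

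A feature of these genes that the choice of members did not use is the sequence of their promoters. RefSeq promoter windows (GRCm38.p6, 250 bases before to 50 after the first listed start) were matched by gene ID for 68 of the 77 genes. The letters CGGAAG, the core recognised by ETS factors such as GABP, were found on either strand in 37 of the 68 (54.4%), against 17.2% of the windows of all 27025 genes. AAGATGGC, the letters of YY1, stood in 17.6% of member windows against 2.88% of all, and the palindrome of the nuclear respiratory factor NRF1 in 20.6% against 6.43%. GGGCGG, the box of SP1, stood in 50% against 35.9%, and TATAAA, the TATA box, in 5.88% against 14.2%. All were searched on both strands. In 3 of the windows with CGGAAG and 3 of those with GGGCGG the match overlapped another of the motifs searched. The windows of members also had a higher content of G and C, with a median of 58.2% against 52.7% for all genes, and the part of base composition in these shares was not tested. By subunit, the NRF1 palindrome stood in 11 of 42 large and 3 of 26 small subunit windows, the ETS core in 22 and 15, the YY1 letters in 6 and 6 and the SP1 box in 17 and 17.

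The stretches below show these letters, in capitals, in the 120 bases before the start of Mrpl36, Mrpl42, Mrps30 and Mrps36, whose signals are described further on. They are followed by those of Mrpl1 and Mrps17, chosen as the member of each subunit with the most kinds of motif in that stretch (first by name among ties) and no other gene across it. All are written 5′ to 3′ on the gene's own strand.
Mrpl36, chr13:73330889-73331008, plus strand, with the YY1 letters: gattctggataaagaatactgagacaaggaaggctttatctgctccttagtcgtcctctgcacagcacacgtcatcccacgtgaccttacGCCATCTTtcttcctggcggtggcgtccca
Mrpl42, chr10:95501950-95502069, minus strand, with the SP1 box: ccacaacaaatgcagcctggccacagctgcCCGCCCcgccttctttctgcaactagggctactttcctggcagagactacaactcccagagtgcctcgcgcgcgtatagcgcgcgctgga
Mrps30, chr13:118387253-118387372, minus strand, with none of the letters: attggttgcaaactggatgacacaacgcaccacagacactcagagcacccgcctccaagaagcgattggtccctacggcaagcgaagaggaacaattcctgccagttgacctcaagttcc
Mrps36, chr13:100744660-100744779, minus strand, with overlapping SP1 boxes: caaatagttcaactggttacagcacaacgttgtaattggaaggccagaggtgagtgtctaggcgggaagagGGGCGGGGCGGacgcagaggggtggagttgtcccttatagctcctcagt
Mrpl1, chr5:96209995-96210114, plus strand, with the SP1 box and the ETS core: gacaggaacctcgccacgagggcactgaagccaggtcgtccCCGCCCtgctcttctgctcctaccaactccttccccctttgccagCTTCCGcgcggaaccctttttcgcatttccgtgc
Mrps17, chr5:129715377-129715496, plus strand, with the ETS core and the SP1 box: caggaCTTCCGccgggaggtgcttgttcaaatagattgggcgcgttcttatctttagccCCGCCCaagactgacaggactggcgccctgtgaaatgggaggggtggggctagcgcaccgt

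One pair of members stood head to head. Mrpl46 (minus strand) and Mrps11 (plus strand) on chromosome 7 start 41 bases apart, so a large and a small subunit gene share the same upstream stretch, shown here on the plus strand with an SP1 box in capitals.
Mrpl46-Mrps11, chr7:78783090-78783130: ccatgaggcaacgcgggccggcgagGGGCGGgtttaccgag
No other members were direct neighbours among protein-coding genes. Mrpl46, a large subunit protein added in mitochondria, read 9.01, 9.17 and 9.13 on the VAChT KD arrays, against 8.89, 8.74 and 8.86 on the WT arrays, and the groups did not overlap. Its highest array was VAChT KD 2 and its lowest WT 2. Without both arrays its difference was 0.20 (standard error 0.12). With these 2 labels exchanged its groups would overlap. The same holds for every gene described here whose VAChT KD values all lie above its WT values. Mrps11, a small subunit protein with a bacterial counterpart, read 8.78, 8.98 and 9.10 against 8.75, 8.77 and 8.81. On Mrps11 only VAChT KD 1 lay among the WT values. The log2 difference, VAChT KD minus WT, was 0.28 for Mrpl46 (standard error 0.08, limma adjusted p = 0.409) and 0.18 for Mrps11 (standard error 0.10, adjusted p = 0.488).

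Signals of both subunits were slightly higher on the VAChT KD arrays than on the WT arrays. The median log2 difference was 0.11 over the 53 large subunit probe sets and 0.11 over the 32 small subunit probe sets, against -0.02 over all probe sets and 0.016 over the 20389 probe sets above the background level. The difference was positive at 50 of 53 large and 29 of 32 small subunit probe sets, where 45.8% of all probe sets and 54.6% of those above background were positive. It ran from -0.08 to 0.33 in the large subunit and from -0.04 to 0.40 in the small subunit.

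Taken singly, few members passed a test. At an unadjusted p of 0.05 in limma, 4 large and 3 small subunit probe sets were higher and none was lower in VAChT KD hearts, 8.24% of the 85 higher where 3.93% of all probe sets were. On the side of lower signal, 7.81% of all probe sets passed. At the same p in limma together with 1.3-fold, 1 member passed, a probe set of Mrps36 at 1.32-fold, against 2.12% of all probe sets in that direction. By the unmoderated test that the study's methods name, that probe set did not pass the p of 0.05. No member passed an adjusted p of 0.05 (lowest 0.409), which 1 probe set of all (0.00281%), with no gene listed, did. All VAChT KD arrays lay above all WT arrays at 10 members (11.8%), against 6.25% of all probe sets, and below them at none, against 12.9%. Apart from members described below these were 1 probe set of Mrpl41 (0.21), Mrpl15 (0.17), Mrpl1 (0.11), Mrps7 (0.14) and Mrps9 (0.10), named here after their values were seen. With the labels of VAChT KD 2 and WT 2 exchanged, the groups would overlap at all 10.

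**Figure D1:**
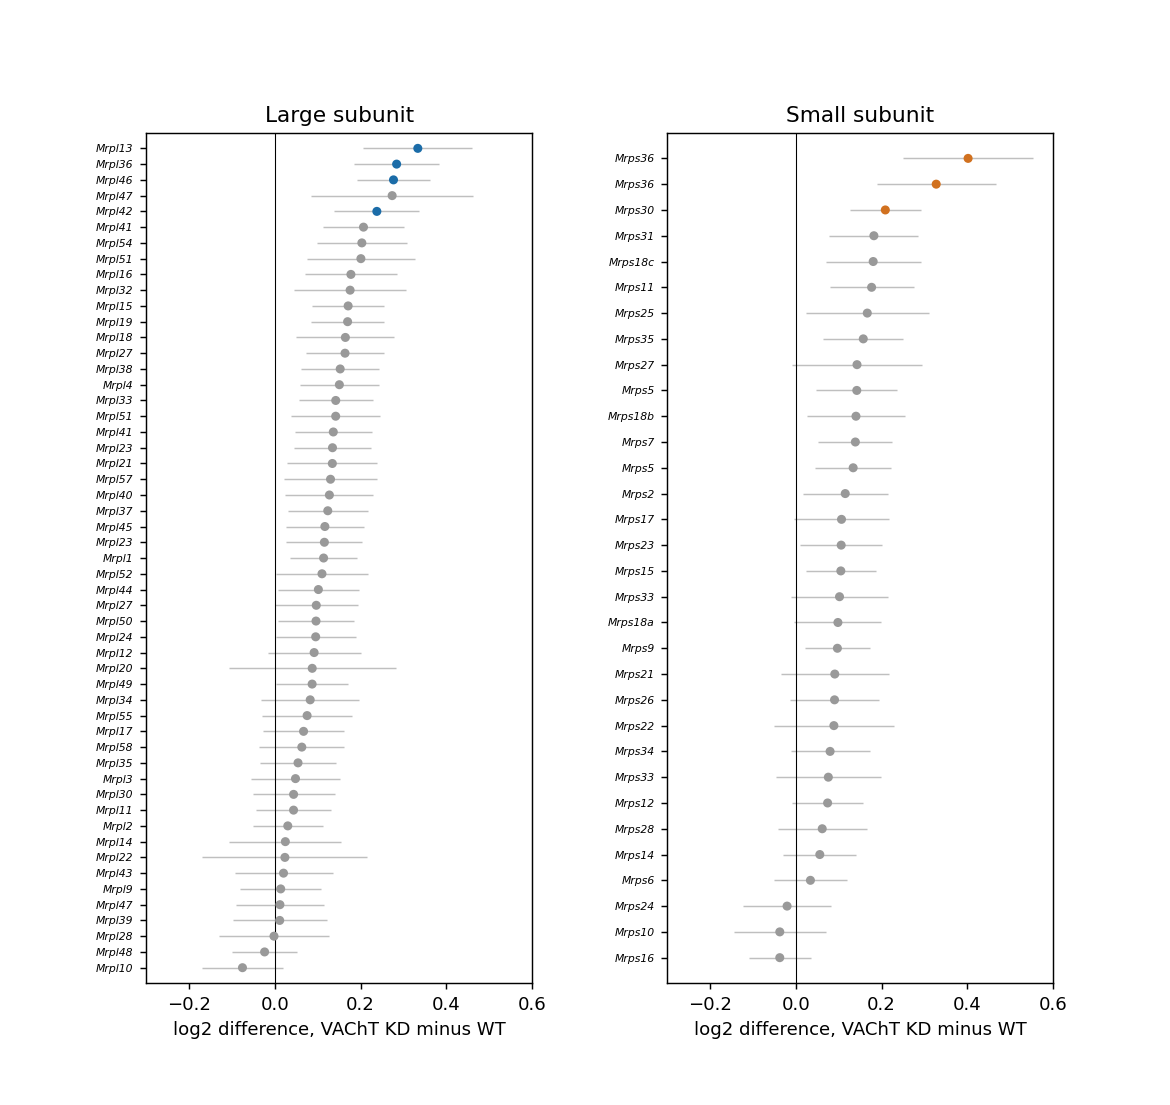
Log2 difference, VAChT KD minus WT (horizontal axis, bars show limma's standard error), for each probe set of the large (left) and small (right) subunit, with colour for those at an unadjusted p of 0.05. Values are positive at 50 of 53 large and 29 of 32 small subunit probe sets, from -0.08 for Mrpl10 to 0.40 for a probe set of Mrps36.

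Large and small subunits did not separate. For each array, every probe set was set against its own mean over the 6 arrays and averaged by subunit. The large subunit mean was -0.023, 0.0046 and 0.19 on VAChT KD 1, 2 and 3, against -0.10, -0.021 and -0.05 on WT 1, 2 and 3. The small subunit mean was 0.016, 0.016 and 0.15 on the VAChT KD arrays, against -0.13, -0.002 and -0.04 on the WT arrays. VAChT KD 3 was thus the highest array and WT 1 the lowest in both subunits, and the groups overlapped for the large subunit only, where VAChT KD 1 lay just below WT 2. This order depended on the scaling. After a further quantile normalization the lowest large subunit array was WT 3 (-0.052), with WT 1 at -0.030. The large subunit groups then did not overlap, with VAChT KD 2 at -0.014 and WT 2 at -0.024. Large minus small subunit gave -0.039, -0.012 and 0.043 on the VAChT KD arrays and 0.035, -0.019 and -0.0091 on the WT arrays. Its mean was -0.0023 ± 0.042 in VAChT KD and 0.0023 ± 0.028 in WT (SD, n = 3 arrays each), a difference of -0.0046 that is smaller than the spread between arrays.

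**Figure D2:**
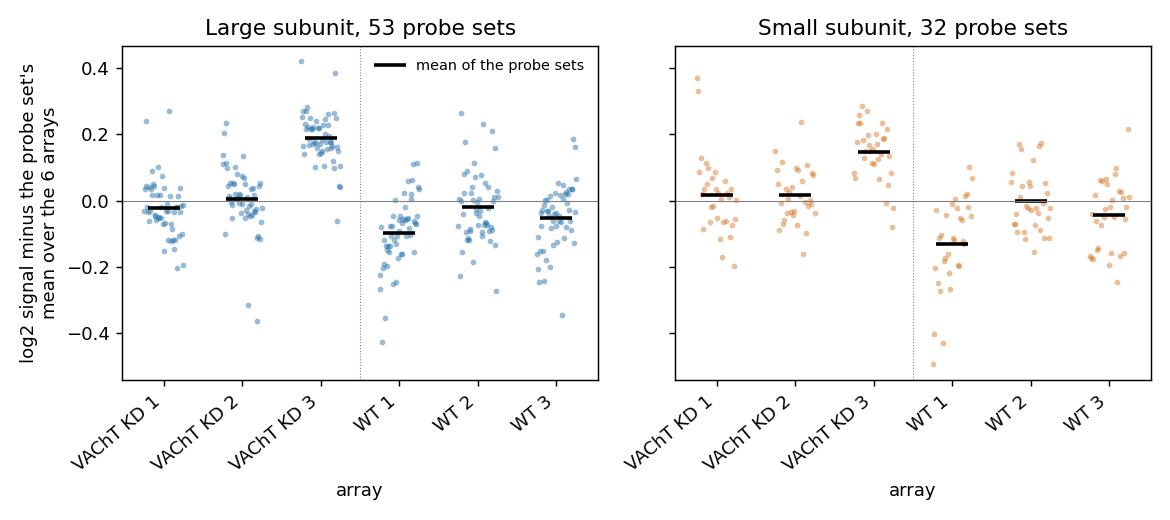
Log2 signal of each large (left) and small (right) subunit probe set minus its mean over the 6 arrays (vertical axis), by array (horizontal axis), with a bar at the mean of the probe sets. VAChT KD 3 stands highest with means of 0.19 and 0.15, WT 1 lowest with means of -0.10 and -0.13.

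VAChT KD 3 was the highest of the 6 arrays at most members, 45 of 53 large and 23 of 32 small subunit probe sets, 80% of the members, where it was the highest at 25.4% of all probe sets and 33% of those above background. WT 1 was the lowest at 20 large and 16 small subunit probe sets, 42.4% of members against 24.7% of all and 33% of those above background. Array weights in limma, lower for arrays that vary more within their group over all probe sets, were 0.66 for VAChT KD 3 and 0.51 for WT 1. Those of the other arrays ran from 1.09 to 1.52. With these weights the median difference was 0.07 in both subunits. Without VAChT KD 3 the median difference was 0.05 in the large and 0.07 in the small subunit, 61 of the 85 members were positive, and 2 passed the unadjusted p on the higher side, where 2.67% of all probe sets did. Without WT 1 the medians were 0.09 and 0.08, 75 were positive and 1 passed, against 2.39% of all. Without VAChT KD 2 the medians were 0.15 in both, 78 were positive and 1 passed, that of Mrps31 (0.27), which is none of the 7 called on all arrays, against 3.63% of all. Without WT 3 they were 0.11 and 0.13, 76 were positive and 2 passed, against 4.90% of all. With both arrays numbered 2 left out the medians were 0.16 and 0.16, 79 were positive and 8 passed, against 4.46% of all. Of the 7, Mrpl36 (0.36) and both probe sets of Mrps36 (0.56 and 0.49) were among the 8, while Mrpl13 (0.41), Mrpl46 (0.20), Mrpl42 (0.24) and Mrps30 (0.25) did not pass. In no case did a member pass on the lower side or at the adjusted p.

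Proteins with and without a bacterial counterpart had differences of similar size. In the large subunit the median was 0.10 for the 33 probe sets of bacterial type and 0.13 for the 20 specific to mitochondria. In the small subunit it was 0.10 for 17 and 0.14 for 15. The 15 hold both probe sets of Mrps36, whose protein is not ribosomal, and those of Mrps30 and Mrps18a, whose proteins sit in the large subunit. Mrps18a and Mrps18b were counted as specific to mitochondria although they are paralogs of bacterial S18. The 3 negative small subunit values were all of bacterial type.

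Among large subunit genes, Mrpl13, Mrpl36, Mrpl46 and Mrpl42 were those at an unadjusted p of 0.05. Mrpl13, the counterpart of bacterial L13, an early assembly protein in bacteria, read 8.94, 9.08 and 9.39 on the VAChT KD arrays, against 8.70, 8.89 and 8.81 on the WT arrays. Its groups did not overlap, with VAChT KD 3 well above the rest, and the difference was 0.33 (standard error 0.13, limma adjusted p = 0.409). Mrpl36, the counterpart of the small zinc-binding bacterial protein L36 and shown above with its YY1 letters, read 10.02, 10.12 and 10.24 against 9.76, 9.99 and 9.78. Here too the groups did not overlap, although VAChT KD 1 and WT 2 nearly met, and the difference was 0.28 (standard error 0.10, adjusted p = 0.409). Mrpl42, a protein added in mitochondria, read 9.98, 10.23 and 10.14 against 9.79, 9.99 and 9.84. Its groups overlapped at VAChT KD 1 and WT 2, and the difference was 0.24 (standard error 0.10, adjusted p = 0.421).

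At the other end of the large subunit, Mrpl10, Mrpl48 and Mrpl28 had negative differences. Mrpl10, the counterpart of the bacterial L10 that anchors the stalk, read 10.60, 10.77 and 10.90 on the VAChT KD arrays, against 10.83, 10.80 and 10.86 on the WT arrays. VAChT KD 1 was the lowest array and VAChT KD 3 the highest for this gene, and the difference was -0.08 (standard error 0.10, adjusted p = 0.740). Mrpl12, the stalk protein that Mrpl10 holds in the ribosome and that also binds the mitochondrial RNA polymerase, had the same order of the VAChT KD arrays at 10.26, 10.39 and 10.63, against 10.41, 10.29 and 10.32 on the WT arrays. Its difference was 0.09 (standard error 0.11, adjusted p = 0.721). Mrpl48, added in mitochondria, and Mrpl28, the counterpart of bacterial L28, lay at -0.02 (standard error 0.08) and -0.002 (standard error 0.13), both within 0.066 of 0, the amount that centring arrays on their medians adds to every probe set, and Mrpl39, also added in mitochondria, at 0.01 (standard error 0.11), negative after a further quantile normalization.

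In the small subunit, the probe sets at an unadjusted p of 0.05 belonged to Mrps36 and Mrps30, and neither protein sits in the small subunit. MRPS36 is known as a subunit of the oxoglutarate dehydrogenase complex of the citric acid cycle and not of the ribosome, and MRPS30 is found in the large subunit of the mammalian mitochondrial ribosome, as is MRPS18A. Mrps36 read 9.35, 9.13 and 9.06 on the VAChT KD arrays at 1 of its 2 probe sets, against 8.49, 9.04 and 8.82 on the WT arrays. The groups did not overlap, with VAChT KD 1 the highest and WT 1 far below the others, and the difference was 0.40 (standard error 0.15, limma adjusted p = 0.409). The other probe set read 9.35, 9.12 and 9.09 against 8.62, 9.11 and 8.85, with VAChT KD 3 below WT 2, and differed by 0.33 (standard error 0.14, adjusted p = 0.424). The similar values of the 2 probe sets are not independent, as both are listed for 1 gene. Mrps30 read 7.99, 7.95 and 8.08 against 7.70, 7.83 and 7.86, with no overlap, and differed by 0.21 (standard error 0.08, adjusted p = 0.413).

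With members placed by where the protein sits, Mrps36 left out and Mrps18a and Mrps30 moved, 5 of 55 large and 0 of 28 small subunit probe sets passed the unadjusted p in limma, and none in either at the adjusted p. The median differences were then 0.11 and 0.10. The difference of the large subunit mean exceeded that of the small subunit mean by 0.017.

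None of the 3 paralogs of bacterial S18 passed the unadjusted p. Mrps18c, the one that takes the place of bacterial S18, read 9.21, 9.18 and 9.45 on the VAChT KD arrays, against 8.94, 9.15 and 9.20 on the WT arrays, a difference of 0.18 (standard error 0.11, adjusted p = 0.517). Mrps18b, also of the small subunit, differed by 0.14 (standard error 0.11) and Mrps18a, of the large subunit, by 0.10 (standard error 0.10). With both arrays numbered 2 left out the differences of Mrps18c, Mrps18b and Mrps18a were 0.25, 0.16 and 0.025, and without VAChT KD 3 they were 0.097, 0.040 and 0.037. Mrps31, a small subunit protein added in mitochondria, had a difference of 0.18 (standard error 0.10). The lowest small subunit values were those of Mrps16 at -0.04 (standard error 0.07), Mrps10 at -0.04 (standard error 0.11) and Mrps24 at -0.02 (standard error 0.10), all also within 0.066 of 0. Mrps6 followed at 0.03 (standard error 0.08), negative after a further quantile normalization. All 4 have bacterial counterparts.

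The study's table of changed genes holds Mrpl20, Mrpl22 and Mrpl47, all listed as higher in VAChT KD hearts and chosen on these same arrays. All 3 encode large subunit proteins with bacterial counterparts. Mrpl20 read 8.74, 8.15 and 8.64 on the VAChT KD arrays, against 8.45, 8.70 and 8.12 on the WT arrays. Mrpl22 read 7.52, 7.15 and 7.90 against 7.35, 7.72 and 7.42, and the brighter probe set of Mrpl47 read 8.39, 8.05 and 8.42 against 7.73, 8.42 and 7.91. In all 3, VAChT KD 2 was the lowest array of its group and WT 2 the highest of its group, the arrays that also stood apart for Ogdhl. WT 2 also read above VAChT KD 2 in all 3, so exchanging these 2 labels would raise each difference. With the labels exchanged, all VAChT KD values would lie above all WT values in all 3. With the labels as given, none of the 3 reached 1.3-fold. Their place in the study's table thus goes with exchanged labels. The values here take the labels as given. The differences were 0.09 (standard error 0.19, adjusted p = 0.859) for Mrpl20, 0.02 (standard error 0.19, adjusted p = 0.967) for Mrpl22 and 0.27 (standard error 0.19, adjusted p = 0.554) for Mrpl47. With both arrays numbered 2 left out they were 0.40 (standard error 0.15), 0.32 (standard error 0.16) and 0.59 (standard error 0.13), with limma adjusted p of 0.466, 0.490 and 0.393, which is no independent evidence for genes chosen on these arrays. The other Mrpl47 probe set read 7.52, 7.53 and 7.42 on the VAChT KD arrays, against 7.41, 7.35 and 7.67 on the WT arrays, and differed by 0.01 (standard error 0.10), and by -0.07 without the arrays numbered 2.

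**Figure D3:**
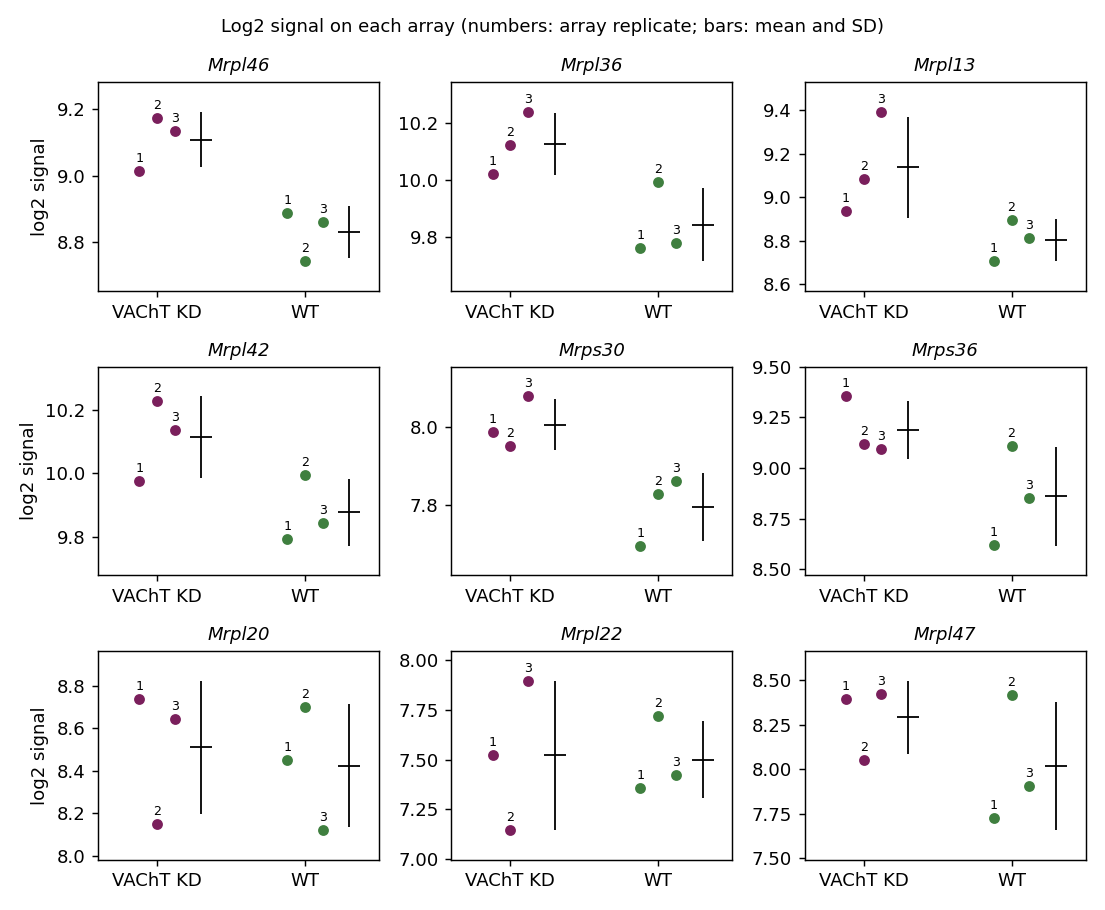
Log2 signal (vertical axis) of 9 genes on each VAChT KD and WT array, numbered by array, with the mean and SD of each group (n = 3 arrays each) and the brighter probe set where a gene has 2. With the labels as given, the groups do not overlap for Mrpl46, Mrpl36, Mrpl13 and Mrps30, whereas Mrpl20, Mrpl22 and Mrpl47 read low on VAChT KD 2 and high on WT 2.

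For 8 genes the array holds 2 probe sets. Those of Mrpl23, Mrpl27, Mrpl41, Mrpl51, Mrps5, Mrps33 and Mrps36 gave differences 0.0084 to 0.074 apart, and those of Mrpl47 were 0.26 apart. The 2 of Mrpl23 had mean signals of 11.55 and 11.59 and differences of 0.13 and 0.12. Probe sets listed for 1 gene may share sequence with its copies elsewhere in the genome, which was not examined.

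Other proteins of mitochondrial translation, from lists of known factors, had values of similar size. For comparison, 3.93% of all probe sets were higher at the unadjusted p in limma. Of the probe sets above background, 54.6% were positive. Of 4 mitochondrial ribosomal proteins named otherwise, 3 were positive, and Chchd1, of the small subunit, read 9.52, 9.48 and 9.75 on the VAChT KD arrays, against 9.33, 9.21 and 9.28 on the WT arrays. Its groups did not overlap, and the difference was 0.31 (standard error 0.10, limma adjusted p = 0.409). Of 16 probe sets of translation factors 15 were positive (median 0.15), and 1 passed the unadjusted p, that of Slirp, which protects mitochondrial messages together with Lrpprc, at 0.22 (standard error 0.08). Of 23 probe sets of assembly factors 18 were positive (median 0.08) and 2 passed, the rRNA-binding Mterf4 at 0.20 (standard error 0.07) and the GTPase Gtpbp10 at 0.21 (standard error 0.09).

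Mitochondrial tRNA synthetases had a median of 0.07 over 19 probe sets with none past the unadjusted p, the smallest p being those of the leucine enzyme Lars2 (0.23, standard error 0.12) and the proline enzyme Pars2 (0.17, standard error 0.09). Among 10 probe sets for transcription and maintenance of mitochondrial DNA the median was 0.08, and 1 passed, where 3.93% of all probe sets did on the higher side. This was Tfam, which packages that DNA and starts its transcription. It read 8.10, 7.99 and 8.24 on the VAChT KD arrays, against 7.68, 7.91 and 7.84 on the WT arrays, a difference of 0.30 (standard error 0.10, adjusted p = 0.409) with no overlap. Of 11 probe sets of regulators of mitochondrial genes 0 passed the unadjusted or the adjusted p in limma, and the median was 0.04. Gabpa, the subunit of GABP that binds the ETS core, differed by 0.15 (standard error 0.08) and the coactivator Ppargc1b by 0.13 (standard error 0.10).

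2 families of related function had smaller differences. Cytosolic ribosomal proteins had a median of 0.03 over 215 probe sets, 69.8% of them positive and none past the unadjusted p in either direction or the adjusted p in limma. Nuclear-encoded subunits of respiratory complex I, which join subunits made by mitochondrial ribosomes, had a median of 0.02 over 38 probe sets, 60.5% of them positive. At the unadjusted p 1 was higher (2.63%, against 3.93% of all probe sets), that of Ndufa1, an accessory subunit, at 0.27 (standard error 0.10). By array, complex I stood at -0.13, 0.05 and 0.12 on the VAChT KD arrays, against 0.0014, 0.002 and -0.04 on the WT arrays, and cytosolic ribosomal proteins at -0.11, 0.08 and 0.08 against -0.0093, -0.028 and -0.016. As deposited, both were thus lowest on VAChT KD 1, the array with lower cardiomyocyte markers, where the mitochondrial ribosomal proteins stood near their mean. After a further quantile normalization this no longer held. Complex I was then lowest on WT 3 (-0.032), with VAChT KD 1 at -0.015. Cytosolic ribosomal proteins were lowest on WT 2 (-0.044), with VAChT KD 1 at -0.035. The difference between the families was not tested.

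**Figure D4:**
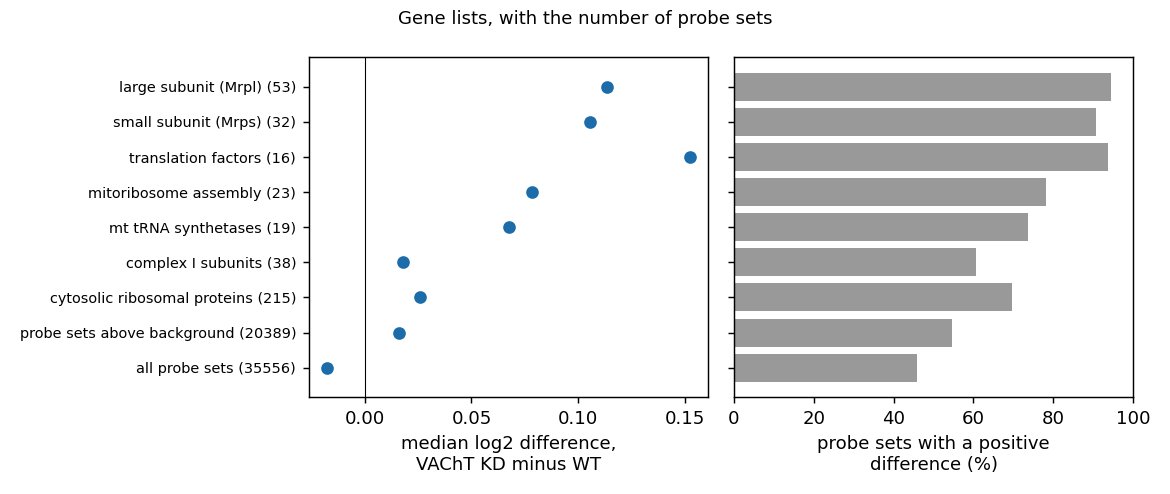
Median log2 difference, VAChT KD minus WT (left), and percent of probe sets with a positive difference (right), for each gene list (vertical axis, number of probe sets in brackets). Both subunits lie at a median of 0.11 with over 90% positive, whereas all probe sets lie at -0.02 with 45.8% positive.

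Markers of other cells were set beside the members. The atrial markers (4 of 4 above background) spanned 10.48 to 10.98 on the VAChT KD arrays and 10.24 to 10.52 on the WT arrays, highest on VAChT KD 3. Alas2, an enzyme of heme synthesis in erythroid cells and the 1 found of 2 erythroid markers, spanned 8.89 to 10.03 and 8.65 to 9.31, highest on VAChT KD 3 and lowest on WT 1 like the members. The adipocyte markers (2 of 4 above background) averaged 6.43 to 6.60 on the VAChT KD arrays and 6.58 to 7.02 on the WT arrays, and those of fast skeletal muscle (2 of 4 above background) 6.43 to 6.55 and 6.63 to 6.81, both lists highest on WT 1. Markers of endothelium lay between 10.70 and 10.92 on the VAChT KD arrays and between 10.70 and 10.90 on the WT arrays, those of fibroblasts between 9.06 and 9.18 and between 9.11 and 9.28, and those of leukocytes between 7.67 and 8.18 and between 7.75 and 7.95. Their part in the shift of the mitochondrial ribosomal protein genes was not tested.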

How the data were processed

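Values were used as deposited by the authors, who had read the scans with Command Console 1.1 and applied RMA (Partek Genomics Suite 6.5), which gave a log2 signal for each of 35556 probe sets. For genome build and annotation the entry is not given in the sources used here. Gene names came from the table supplied for the platform (21789 probe sets with 1 symbol, 1621 with several, 12146 unlisted), and those with several symbols were not named, among them 1 that lists a mitochondrial ribosomal protein gene. VAChT KD and WT arrays were compared with limma 3.58.1 in R 4.3.3 over all probe sets, with Benjamini-Hochberg adjustment. Differences are VAChT KD minus WT on the log2 scale. An exact permutation test of 3 against 3 arrays cannot go below 0.1 and was not used. With 3 arrays a group the precision is limited, and p-values measure the spread between pools. Members and lists were chosen with earlier results of these data known. Named were members at an unadjusted p of 0.05, the 4 highest and 4 lowest differences and the 2 brightest and 2 dimmest probe sets of each subunit, genes of the study's table, paralogs of S18, Mrps30, Mrps36, Mrpl12 and leading genes of related lists. Promoters and chromosomes came from RefSeq (GRCm38.p6). Code was tested on simulated data. Alternatives were scaling, variance model, array weights, test, threshold, choice of probe set, subunit placement and arrays left out.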

Additional observations from a re-analysis of the deposited data

How the results depend on the processing

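At an unadjusted p of 0.05, 4 large and 3 small subunit probe sets were higher as deposited, where 3.93% of all probe sets were. A further quantile normalization gave 3 large and 1 small, with 4.33% of all called higher. Centring arrays on their medians gave 7 large and 3 small, with 6.72% of all. Array weights gave 2 large and 1 small (3.44% of all), and the methods' ANOVA 2 and 1 (2.71% of all). At p of 0.01 the counts were 0 and 0, at p of 0.05 with 1.3-fold 0 and 1, at the adjusted p 0 and 0 in limma, and with small subunit members placed by position in the ribosome 0. Leaving out single arrays gave 0 to 6 large and 0 to 2 small, with WT 1, WT 3, VAChT KD 2 and VAChT KD 3 each bringing the joint count of 7 down to 1 or 2. Median differences stayed positive in both subunits, between 0.05 and 0.18, under every scaling and every array left out. Against 0.11 in both subunits as deposited, a further quantile normalization gave 0.06 in the large and 0.08 in the small subunit. Positive members then fell from 79 to 72. Centring on medians gave 0.18 and 0.17. No symbol marked a pseudogene, so leaving such members out was not run.

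With the labels as given, deviations of arrays with the same number correlated at 0.057, -0.12 and 0.13. Those of arrays with different numbers correlated at -0.21 to 0.18. These values show no pairing by number, and with 3 arrays a group they cannot exclude one. With the replicate number as a block, 4 large and 0 small subunit probe sets were called, all higher, where 4.40% of all probe sets were called higher.

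Differences near 0 changed sign. Centring on medians adds 0.066 to every difference by construction, and so gave 0.064 for Mrpl28, 0.042 for Mrpl48, 0.046 for Mrps24, 0.029 for Mrps10 and 0.029 for Mrps16. Further quantile normalization gave -0.0082 for Mrpl39 and -0.028 for Mrps6. Array weights gave -0.12 for Mrpl22, -0.052 for Mrpl39 and 0.053 for Mrpl28. Without both arrays numbered 2, the dimmer Mrpl47 probe set gave -0.071 and Mrpl48 gave 0.010. With single arrays left out, Mrpl12 ran from -0.0086 to 0.17, Mrpl20 from -0.064 to 0.27, Mrpl22 from -0.16 to 0.21, the dimmer Mrpl47 probe set from -0.053 to 0.11, Mrpl39 from -0.061 to 0.093, Mrpl28 from -0.14 to 0.079, Mrpl48 from -0.051 to 0.0017, Mrpl10 from -0.15 to 0.0033, Mrps21 from -0.0055 to 0.20, Mrps6 from -0.025 to 0.080, Mrps24 from -0.067 to 0.073 and Mrps10 from -0.10 to 0.062. For the settings other than centring, the cause was not tested.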

Other observations

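Of the 6 member probe sets on chromosome 13 (5 genes), 4 were higher in VAChT KD hearts at an unadjusted p of 0.05 in limma, those of Mrpl36, Mrps30 and both of Mrps36, and the 6 differences ran from 0.14 to 0.40. Among all 788 probe sets of chromosome 13 this share was 4.19%, and among the 79 members elsewhere 3 were higher. The chromosome was noticed after the values were seen, and the grouping was not tested.

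Median differences of members with and without each motif in the promoter window were 0.09 and 0.11 for the NRF1 palindrome, 0.10 and 0.11 for the ETS core, 0.13 and 0.10 for the YY1 letters, 0.11 and 0.10 for the SP1 box and 0.14 and 0.10 for the TATA box, which 4 members held. These differences were not tested.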
